A study of Mus musculus with 6 samples.

Results

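Genes of fatty acid uptake and beta-oxidation were examined in hearts of mice with heart failure with preserved ejection fraction (HFpEF) and of chow-fed controls. The set holds 39 genes of the 54532 in the deposited table. They were listed by gene symbol from what their products do, with earlier results of these data known, and each symbol matched 1 Ensembl identifier. Of the 39 genes, 9 act in uptake and activation of fatty acids, 2 in lipolysis, 6 in the carnitine shuttle, 2 in control of malonyl-CoA, 16 in the oxidation cycle, and 4 are thioesterases or an uncoupling protein.

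The adult heart draws most of its energy from long-chain fatty acids. These are released from triglyceride-rich lipoproteins at the capillary wall or from lipid droplets inside the cardiomyocyte, bound by a cytosolic carrier, and activated to acyl-CoA. Carnitine carries the acyl groups into mitochondria, where each turn of beta-oxidation shortens them and passes electrons to the respiratory chain, and malonyl-CoA restrains their entry.

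The mice were male C57BL/6 of 6 to 8 weeks of age at the start. The 3 HFpEF mice received a high-fat diet, with 60% of kcal from fat, and, in their drinking water, 0.5 g/L of L-NAME, which blocks nitric oxide synthases, both for 12 weeks, while the 3 Chow mice were kept on standard chow and plain water. The diet and the inhibitor were always given together, so their effects cannot be told apart. Tissue is given as heart in the sample labels and as left ventricular myocardium in the study's methods, and each of the 6 libraries came from 1 mouse.

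Values are FPKM, in which fragments are divided by exon length and by a divisor for each library. On this scale levels of genes of different length can be compared. The reads behind them, recovered as described under processing, numbered 13076772 to 15574914 per Chow library and 13461735 to 16027084 per HFpEF library. The divisor implied by the values was 1.42e+07, 1.17e+07 and 1.21e+07 in Chow and 1.38e+07, 1.69e+07 and 1.93e+07 in HFpEF. It lay below the recovered reads in every Chow library and above them in every HFpEF library, so it did not follow the recovered reads. Between 20 and 61383 of these reads fell on each member in each library. All 39 members had an FPKM of at least 0.5 in every library, so all were among the 14225 genes tested, and none owed its place in the test to 1 group alone.

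The libraries differed in more than diet, and these differences precede every result here. Library 3 of HFpEF stood apart on the first principal component of all genes tested, at 75.5 against 11.6 and 12.7 for the other HFpEF libraries and -35.8 to -31.7 for Chow. Mitochondrially encoded genes took 7.17% of its reads, against 22.6% and 20.1% in HFpEF 1 and 2 and 24.0% to 26.0% in Chow. The 8 fibroblast markers summed to 5522 FPKM in HFpEF 3, to 425 and 494 in the other HFpEF libraries, and to 220.4 to 258 in Chow. Markers of atrial cardiomyocytes were present in HFpEF 1, HFpEF 2 and Chow 3. *Myl7*, the atrial myosin light chain, had FPKM values of 3.81, 0.289 and 237 in Chow and 975, 2073 and 8.60 in HFpEF. The 10 ventricular cardiomyocyte markers, most of which atrial cardiomyocytes also express, summed to 15730 to 17420 FPKM in Chow and 7677 to 11840 in HFpEF. Of these, *Myl2*, the ventricular regulatory light chain, was present in every library, at 2197, 2361 and 2275 in Chow and 1203, 1216 and 854 in HFpEF.

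The members were lower in HFpEF as a group. Their median log2 fold change (HFpEF minus Chow, on the log2(FPKM + 0.1) scale) was -0.70, which is 61.6% of the Chow level, beside -0.01 over all genes tested. Of the 39 members, 36 had a fold change below 0 and 3 above 0. In 32 members every HFpEF library lay below every Chow library, against 19.8% of all genes tested, and 1 member, *Acsl4*, was higher without overlap, against 15.5% of all genes. In bulk tissue, fewer cardiomyocytes and less of these RNAs per cardiomyocyte cannot be told apart.

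None of these differences passed the correction over all genes in the 6 libraries. With limma, 0 members reached the threshold of the study, an adjusted p under 0.05 with a log2 fold change of 2 or more in either direction, which 0.0562% of all genes reached. The study applied that threshold to a DESeq2 fit, so its calls and these are not alike. The members' log2 fold changes ran from -0.92 to 0.51, so none could meet the fold-change limit. At an adjusted p under 0.05 with any fold change the count was also 0, against 0.0984% of all genes, and the members' adjusted p ran from 0.0642 to 0.824. At an unadjusted p under 0.05, 30 members were lower and 1 was higher, where 13.1% and 10.2% of all genes were. The 33 members without overlap had an exact two-sided permutation p of 0.1, the smallest that 3 mice against 3 allow.

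**Figure D1:**
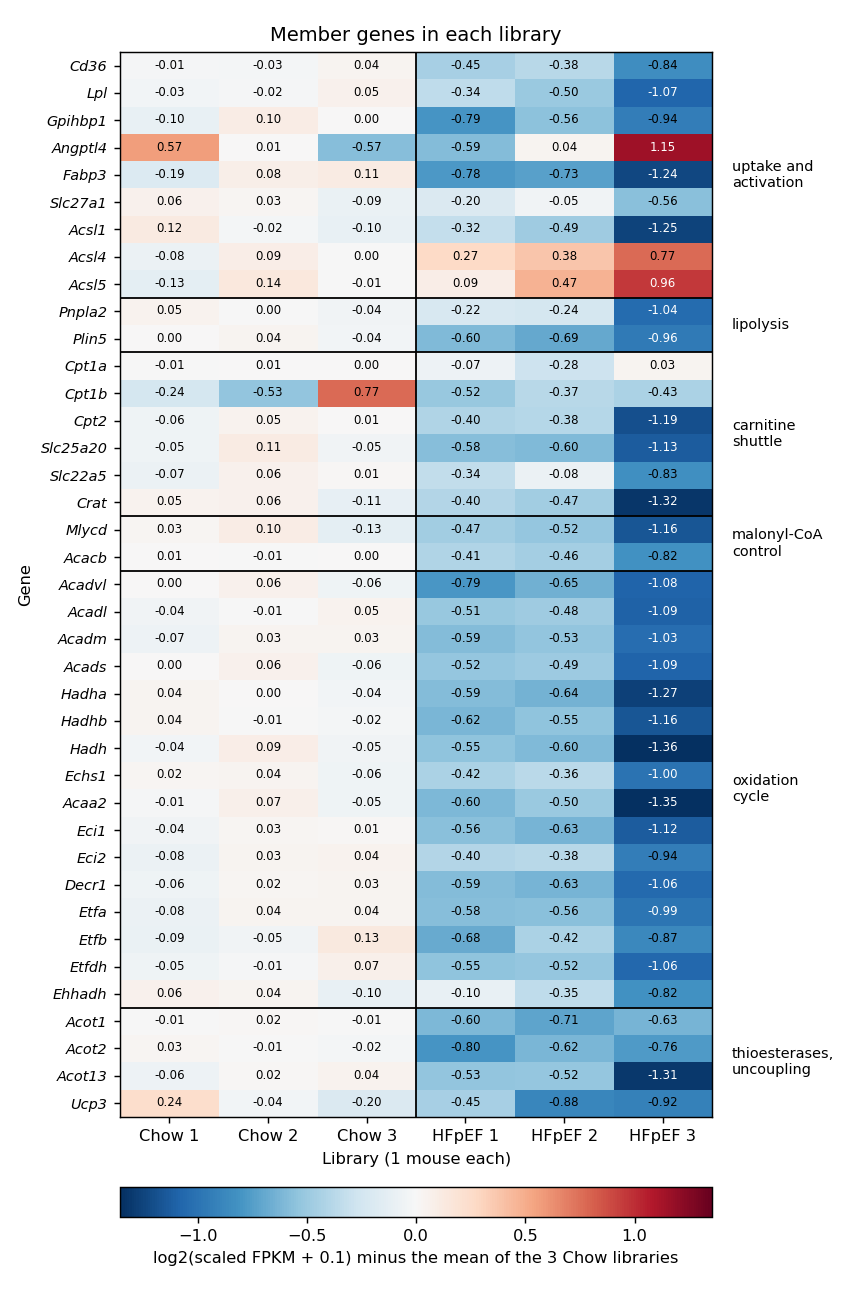
Each row is 1 of the 39 members, each column 1 library (1 mouse), and each cell the log2(scaled FPKM + 0.1) minus the mean of the 3 Chow libraries, in blue below and in red above that mean. The Chow columns are near 0 except for Angptl4, Cpt1b and Ucp3, HFpEF 1 and 2 are blue in 37 and 36 rows, and HFpEF 3 is the darkest, with 32 members at their lowest value.

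The size of the difference was split unevenly among the 3 HFpEF mice. The median over members of the log2 ratio to the Chow mean was -0.52 in HFpEF 1, -0.50 in HFpEF 2 and -1.03 in HFpEF 3, while the 3 Chow libraries lay between -0.01 and 0.03. The median coefficient of variation over members was 4.22% in Chow and 20.4% in HFpEF. Of the 32 members that were lower without overlap, 30 had their lowest value in HFpEF 3.

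Leaving out HFpEF 3 made the fold changes smaller and brought most of them past the correction. The median log2 fold change became -0.50, or 70.6% of Chow, and 29 of the 39 members fell at a limma adjusted p under 0.05, against 5.36% of all genes. No member rose at that threshold, which 2.85% of all genes passed upwards. The 29 adjusted p values lay between 0.0128 and 0.0484, and the 10 members outside them were *Angptl4*, *Slc27a1*, *Acsl4*, *Acsl5*, *Pnpla2*, *Cpt1a*, *Cpt1b*, *Slc22a5*, *Ehhadh* and *Ucp3*. That fit rests on 2 HFpEF mice, both with atrial markers in their libraries.

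Promoters were searched for the element bound by PPARs with RXR, nuclear receptors known to regulate many of these genes. The element, called DR1, is 2 copies of AGGTCA in the same direction with 1 base between them. RefSeq promoter windows (GRCm38.p6, 250 bases before to 50 bases after a start) were found for 31 of the 39 members, in 35 windows. An exact DR1 stood in 0 of the 31 members and in 0.04% of all 32851 windows. With up to 2 mismatches, on either strand, 5 members had a match, namely *Cd36*, *Echs1*, *Etfa*, *Slc25a20* and *Ucp3*, or 14.3% of the members' 35 windows against 3.86% of all windows. A single AGGTCA, which is part of each full DR1, stood in 8 members (25.7% of their windows against 16.3%), the estrogen-related receptor element, TCA followed by AGGTCA, in 0 (0.42% of all windows), CCAAT in 16 (48.6% against 37.4%) and TATAAA in 1, *Acacb* (2.86% against 13.6%), each on either strand. These shares describe letters in a window, and binding was not measured. The 100 bases before the start are shown for the 4 members whose match lies upstream, 5′ to 3′ on the strand of the gene, with the 13 bases of the match in capitals. In *Cd36* and *Etfa* the match reads on the opposite strand.
Cd36 (chr5:17835897-17835996, minus strand): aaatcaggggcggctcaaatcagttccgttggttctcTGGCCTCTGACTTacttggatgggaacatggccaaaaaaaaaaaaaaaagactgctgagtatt
Ucp3 (chr7:100472891-100472990, plus strand): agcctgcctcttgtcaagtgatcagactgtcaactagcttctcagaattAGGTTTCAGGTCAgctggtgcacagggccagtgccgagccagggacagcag
Echs1 (chr7:140116422-140116521, minus strand): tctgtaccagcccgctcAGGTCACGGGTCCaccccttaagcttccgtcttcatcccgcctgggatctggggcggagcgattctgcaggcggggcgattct
Etfa (chr9:55512244-55512343, minus strand): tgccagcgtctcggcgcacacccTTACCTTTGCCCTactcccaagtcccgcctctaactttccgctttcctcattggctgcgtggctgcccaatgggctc

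The matches begin 63, 51, 83 and 77 bases before the start in *Cd36*, *Ucp3*, *Echs1* and *Etfa*, and each has 2 mismatches. Log2 fold changes of these 4 genes, from -0.75 for *Ucp3* to -0.56 for *Cd36*, lay within the range of the members without a match.

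Delivery of fatty acids from the circulation was represented by 4 genes. *Lpl*, the lipase that frees fatty acids from circulating triglyceride, had FPKM values of 411, 414 and 437 in Chow and 333, 298 and 200.3 in HFpEF. Its log2 fold change was -0.64 (SE 0.21, adjusted p = 0.164). *Gpihbp1*, the endothelial protein that carries this lipase to the capillary surface, had values of 25.05, 28.7 and 26.9 in Chow and 15.5, 18.2 and 14.0 in HFpEF. All HFpEF values of both genes lay below all Chow values. The log2 fold change of *Gpihbp1* was -0.76 (SE 0.13, adjusted p = 0.0845), among the members' lowest adjusted p. *Cd36*, the membrane translocase of fatty acids, stood at 442, 438 and 459 in Chow and 328, 343 and 249 in HFpEF, with a log2 fold change of -0.56 (SE 0.17, adjusted p = 0.145). *Angptl4*, a secreted inhibitor of lipoprotein lipase, was not lower. Its 6 values ran from 1.82 to 6.32 FPKM, with both the lowest and the highest in HFpEF, and the groups overlapped (log2 fold change 0.20, SE 0.49, adjusted p = 0.824).

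*Gpihbp1* was also set against the cells that make it. The geometric mean FPKM of 10 endothelial markers was 24.98, 26.8 and 25.05 in Chow and 20.8, 21.1 and 20.1 in HFpEF. The ratio of *Gpihbp1* to that mean was 1.00, 1.07 and 1.07 in Chow and 0.743, 0.860 and 0.694 in HFpEF, again without overlap (exact permutation p = 0.1). The mean log2 difference of this ratio was -0.46, beside -0.31 for the markers themselves.

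Inside the cell, the carrier *Fabp3* was the most abundant member and, after scaling by the median of ratios, had the largest difference. This heart-type fatty acid binding protein had FPKM values of 2996, 3606 and 3692 in Chow and 1999, 2057 and 1452 in HFpEF, which is 53.5% of the Chow mean. Its log2 fold change was -0.92 (SE 0.23, adjusted p = 0.119). Under quantile normalization it was -0.16. *Fabp3* alone made up 36.5% to 41.1% of the summed FPKM of all members in Chow and 35.1% to 36.8% in HFpEF. Antisense genes share 19.6% of its exon bases and a pseudogene, *Fabp3-ps1*, holds 21.7% of its 100-base windows, so some of its reads could be assigned elsewhere. *Slc27a1*, a fatty acid transport protein, had values from 30.4 to 46.9 FPKM with overlap (log2 fold change -0.27, adjusted p = 0.32).

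The 3 long-chain acyl-CoA synthetases did not move together. *Acsl1*, the main form of heart muscle, had FPKM values of 113, 102 and 97.2 in Chow and 83.2, 74.2 and 43.5 in HFpEF and a log2 fold change of -0.69 (SE 0.25, adjusted p = 0.181). *Acsl4*, which favours arachidonic acid, went the other way at 3.46, 3.89 and 3.66 in Chow and 4.46, 4.80 and 6.32 in HFpEF, with a log2 fold change of 0.47 (SE 0.15, adjusted p = 0.158). All 3 HFpEF values of *Acsl4* lay above all Chow values, the highest in HFpEF 3. *Acsl5* stood at 3.83, 4.63 and 4.17 in Chow and 4.48, 5.85 and 8.25 in HFpEF, where HFpEF 1 lay within the Chow range (log2 fold change 0.51, SE 0.22, adjusted p = 0.233). The ratio of *Acsl4* to *Acsl1* within a library was 0.031 to 0.038 in Chow and 0.054, 0.065 and 0.145 in HFpEF, without overlap (exact permutation p = 0.1). Levels of *Acsl4* and *Acsl5* were low beside *Acsl1* in every library.

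Lipolysis was represented by a lipase and a droplet protein. *Plin5*, which coats lipid droplets in oxidative tissues and ties them to mitochondria, had FPKM values of 62.3, 63.9 and 60.5 in Chow and 41.1, 38.5 and 32.1 in HFpEF. Its log2 fold change was -0.75 (SE 0.13, adjusted p = 0.0845), and its groups were far apart. *Pnpla2*, the adipose triglyceride lipase, was lower in each HFpEF mouse, at 115, 113 and 64.7 FPKM, than in any Chow mouse (137, 133 and 129). Most of its difference came from HFpEF 3 (log2 fold change -0.50, SE 0.24, adjusted p = 0.254).

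The carnitine shuttle split into genes that were lower and *Cpt1a*, the liver-type form of the gateway enzyme, which hardly differed. The muscle-type form, *Cpt1b*, could not be read as a level, so the gateway step as a whole was not measured. *Cpt2*, which rebuilds acyl-CoA inside the mitochondrion, had FPKM values of 96.1, 104 and 101 in Chow and 76.0, 77.0 and 43.9 in HFpEF, with a log2 fold change of -0.66 (SE 0.23, adjusted p = 0.173). *Slc25a20*, the carrier that exchanges acylcarnitine for carnitine across the inner membrane, stood at 36.9, 41.2 and 37.0 in Chow and 25.7, 25.3 and 17.5 in HFpEF, with -0.77 (SE 0.17, adjusted p = 0.109). *Crat*, the carnitine acetyltransferase, stood at 118, 119 and 105 in Chow and 86.4, 82.2 and 45.6 in HFpEF, with -0.73 (SE 0.25, adjusted p = 0.172). Each of these 3 genes was lowest in HFpEF 3 and without overlap. *Slc22a5*, the plasma membrane carnitine transporter, had HFpEF values of 11.2, 13.4 and 7.92 FPKM, of which HFpEF 2 all but reached the lowest Chow value of 13.4 (log2 fold change -0.41, adjusted p = 0.25).

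*Cpt1a*, the liver-type form of the outer-membrane transferase that commits acyl groups to the shuttle, differed least of all members. Its FPKM was 21.2, 21.4 and 21.3 in Chow and 20.3, 17.5 and 21.8 in HFpEF, and the Chow values, with an SD of 0.0980, lay inside the HFpEF range. The log2 fold change was -0.11 (SE 0.11, adjusted p = 0.573). Set against *Cpt2* in the same library, *Cpt1a* was 0.206 to 0.221 in Chow and 0.267, 0.227 and 0.498 in HFpEF, without overlap (exact permutation p = 0.1).

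*Cpt1b*, the muscle-type form, cannot be read as a level in this table. It was listed at 0.646, 0.505 and 1.398 in Chow and 0.514, 0.578 and 0.553 in HFpEF FPKM, far under *Cpt1a* in every library. In GENCODE M21, 81.4% of its exon bases (gene at chr15:89416405-89425863 on GRCm38, minus strand) are shared with the read-through gene *Gm44502*, which was listed at 0 in all 6 libraries. *Chkb*, the other gene that the read-through spans, was listed at 0.135 to 0.309 FPKM. How reads on shared bases were counted is not given in the sources used here. The ratio of *Cpt1a* to *Cpt1b* ran from 15.3 to 42.3 in Chow and from 30.3 to 39.5 in HFpEF, with overlap (log2 difference 0.39, exact permutation p = 0.7), and turned to -0.04 without Chow 3.

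Both members that act on malonyl-CoA were lower. *Mlycd*, which breaks malonyl-CoA down, had FPKM values of 50.8, 53.3 and 45.3 in Chow and 35.9, 34.6 and 22.2 in HFpEF and a log2 fold change of -0.72 (SE 0.20, adjusted p = 0.131). *Acacb*, the mitochondrial acetyl-CoA carboxylase that makes it, had values of 53.8, 53.0 and 53.5 in Chow and 40.3, 38.7 and 30.2 in HFpEF and a log2 fold change of -0.57 (SE 0.14, adjusted p = 0.118). Neither overlapped. The ratio of *Acacb* to *Mlycd* was 1.06, 0.995 and 1.18 in Chow and 1.12, 1.12 and 1.36 in HFpEF, which overlapped (exact permutation p = 0.3). *Acaca*, another acetyl-CoA carboxylase but not a member, was higher in HFpEF (log2 fold change 0.90, limma adjusted p = 0.118).

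All 16 genes of the oxidation cycle were lower in HFpEF, 15 of them without overlap and at an unadjusted p under 0.05, against 19.8% and 13.1% of all genes. Their median log2 fold change was -0.71 with a standard deviation of 0.112 across genes, where the standard deviation over all genes tested was 0.606. These spreads are not on equal terms, since all genes tested include genes of low level and of other cell types. The 16 cycle genes share cells and libraries, so they are not independent. The single exception was *Ehhadh*, the peroxisomal bifunctional enzyme, whose values were 5.65, 5.57 and 5.05 in Chow and 5.06, 4.24 and 3.02 in HFpEF FPKM, HFpEF 1 lying inside the Chow range (log2 fold change -0.42, adjusted p = 0.244).

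The first step of the cycle is run by acyl-CoA dehydrogenases that differ in chain length. *Acadvl*, for very long chains, had FPKM values of 225, 233 and 216 in Chow and 129.8, 143 and 106 in HFpEF and the largest difference of the 4, with a log2 fold change of -0.84 (SE 0.15, adjusted p = 0.0963). On the opposite strand, *Dvl2* overlaps 42.9% of its exon bases, and the strand setting of the counting is not given in the sources used here. *Acadl*, for long chains, stood at 436, 447 and 466 in Chow and 317, 323 and 211 in HFpEF, with -0.69 (SE 0.20, adjusted p = 0.136). *Acadm*, for medium chains, stood at 305, 327 and 327 in Chow and 212, 220.4 and 156 in HFpEF, with -0.72 (SE 0.17, adjusted p = 0.117). *Acads*, for short chains, stood at 100.3, 104 and 96.0 in Chow and 69.9, 71.2 and 47.0 in HFpEF, with -0.70 (SE 0.18, adjusted p = 0.12). For all 4 genes the groups were apart and HFpEF 3 was lowest.

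The middle and last steps for long chains are carried by the mitochondrial trifunctional protein, made of the products of *Hadha* and *Hadhb*. These genes lie head to head on mouse chromosome 5. In the RefSeq table *Hadha* starts at position 30154980 on the minus strand and *Hadhb* at 30155253 on the plus strand, with 272 bases between. The 250 bases before the *Hadhb* start, which fall inside this interval, are shown 5′ to 3′ on the plus strand. In GENCODE M21 *Hadha* extends to position 30155162, so part of these bases lies within that gene. None of the searched elements had a match in the 250 bases, so no base is in capitals.
Hadhb (chr5:30155003-30155252, plus strand): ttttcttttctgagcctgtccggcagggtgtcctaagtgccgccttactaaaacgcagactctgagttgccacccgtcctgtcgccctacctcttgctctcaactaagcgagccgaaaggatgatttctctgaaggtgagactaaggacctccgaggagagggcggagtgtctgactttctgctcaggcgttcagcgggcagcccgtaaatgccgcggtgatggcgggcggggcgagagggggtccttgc

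*Hadha* had FPKM values of 182, 177 and 173 in Chow and 118, 113 and 73.7 in HFpEF, with a log2 fold change of -0.83 (SE 0.20, adjusted p = 0.118). *Hadhb* had values of 257, 249 and 247 in Chow and 163, 171 and 112 in HFpEF, with -0.78 (SE 0.19, adjusted p = 0.118). Both were without overlap and lowest in HFpEF 3. The ratio of *Hadhb* to *Hadha* was 1.41, 1.40 and 1.43 in Chow and 1.39, 1.51 and 1.53 in HFpEF (log2 difference 0.06, exact permutation p = 0.4). Windows of 100 bases shared with *Gm13910* and *Gm9108* made up 14.8% of *Hadhb*.

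The enzymes for shorter chains were likewise lowest in HFpEF 3. *Echs1*, the short-chain enoyl-CoA hydratase, had FPKM values of 46.4, 46.8 and 43.8 in Chow and 34.1, 35.5 and 22.7 in HFpEF and a log2 fold change of -0.60 (SE 0.18, adjusted p = 0.148). *Hadh*, the short-chain hydroxyacyl-CoA dehydrogenase, stood at 129.7, 142 and 129 in Chow and 91.5, 88.0 and 52.2 in HFpEF, with -0.83 (SE 0.23, adjusted p = 0.127). *Acaa2*, the thiolase that releases acetyl-CoA, was the second most abundant member, at 733, 774 and 713 in Chow and 488, 523 and 289.6 in HFpEF, with -0.82 (SE 0.25, adjusted p = 0.147). In each of the 3, HFpEF 1 and 2 were close and HFpEF 3 was far lower.

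Unsaturated fatty acids need auxiliary enzymes that move or remove double bonds. *Eci1*, an enoyl-CoA isomerase, had FPKM values of 261, 274 and 272 in Chow and 182, 173 and 123 in HFpEF and a log2 fold change of -0.77 (SE 0.18, adjusted p = 0.115). *Eci2*, a related isomerase, stood at 22.3, 24.1 and 24.3 in Chow and 17.9, 18.1 and 12.2 in HFpEF, with -0.57 (SE 0.17, adjusted p = 0.141). *Decr1*, the dienoyl-CoA reductase, stood at 102, 108 and 109 in Chow and 70.7, 68.5 and 51.1 in HFpEF, with -0.76 (SE 0.15, adjusted p = 0.101). No library of HFpEF reached the Chow range in these 3 genes.

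Electrons from the dehydrogenases pass through electron transfer flavoprotein to ubiquinone. *Etfa*, its alpha subunit, had FPKM values of 332, 361 and 362 in Chow and 236, 238 and 177 in HFpEF and a log2 fold change of -0.71 (SE 0.17, adjusted p = 0.115). *Etfb*, its beta subunit, stood at 72.3, 74.3 and 84.4 in Chow and 48.0, 57.2 and 42.0 in HFpEF, with -0.66 (SE 0.15, adjusted p = 0.11). *Etfdh*, the oxidoreductase that accepts the electrons, stood at 80.7, 82.8 and 87.8 in Chow and 57.3, 58.3 and 40.1 in HFpEF, with -0.71 (SE 0.17, adjusted p = 0.118). All 3 were without overlap, and the ratio of *Etfa* to *Etfdh* averaged 4.20 ± 0.136 in Chow and 4.21 ± 0.177 in HFpEF (mean ± SD of 3 mice). The predicted gene *Gm45233* shares 58.2% of the exon bases of *Etfb* on the same strand, so its level is less certain.

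Of the thioesterases, which split acyl-CoA back into fatty acid and CoA, 2 had the lowest adjusted p of the set. *Acot2*, the mitochondrial form, had FPKM values of 43.2, 42.0 and 41.5 in Chow and 24.2, 27.4 and 24.8 in HFpEF and a log2 fold change of -0.73 (SE 0.098, adjusted p = 0.0642). *Acot1*, its cytosolic paralogue next to it on chromosome 12, had values of 6.13, 6.24 and 6.14 in Chow and 4.04, 3.73 and 3.96 in HFpEF and -0.65 (SE 0.095, adjusted p = 0.0757). In both genes HFpEF 3 lay between the other HFpEF mice, at log2 ratios to the Chow mean of -0.76 and -0.63, and not below them. Windows shared with the paralogues made up 17.1% of *Acot2* and 12.4% of *Acot1*, so part of their reads could be exchanged, and the ratio of *Acot2* to *Acot1* was 6.73 to 7.05 in Chow and 6.01 to 7.33 in HFpEF.

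*Acot13*, a thioesterase associated with mitochondria, followed the oxidation cycle instead. It stood at 203, 215 and 219 in Chow and 147, 148 and 85.5 in HFpEF, with -0.79 (SE 0.23, adjusted p = 0.14), and at a log2 ratio of -1.31 in HFpEF 3. *Ucp3*, a mitochondrial carrier known to respond to fatty acid supply, had FPKM values of 31.8, 26.2 and 23.6 in Chow and 19.7, 14.6 and 14.3 in HFpEF and a log2 fold change of -0.75 (SE 0.17, adjusted p = 0.115). Among the members without overlap its coefficient of variation in Chow, 15.5%, was the largest.

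**Figure D2:**
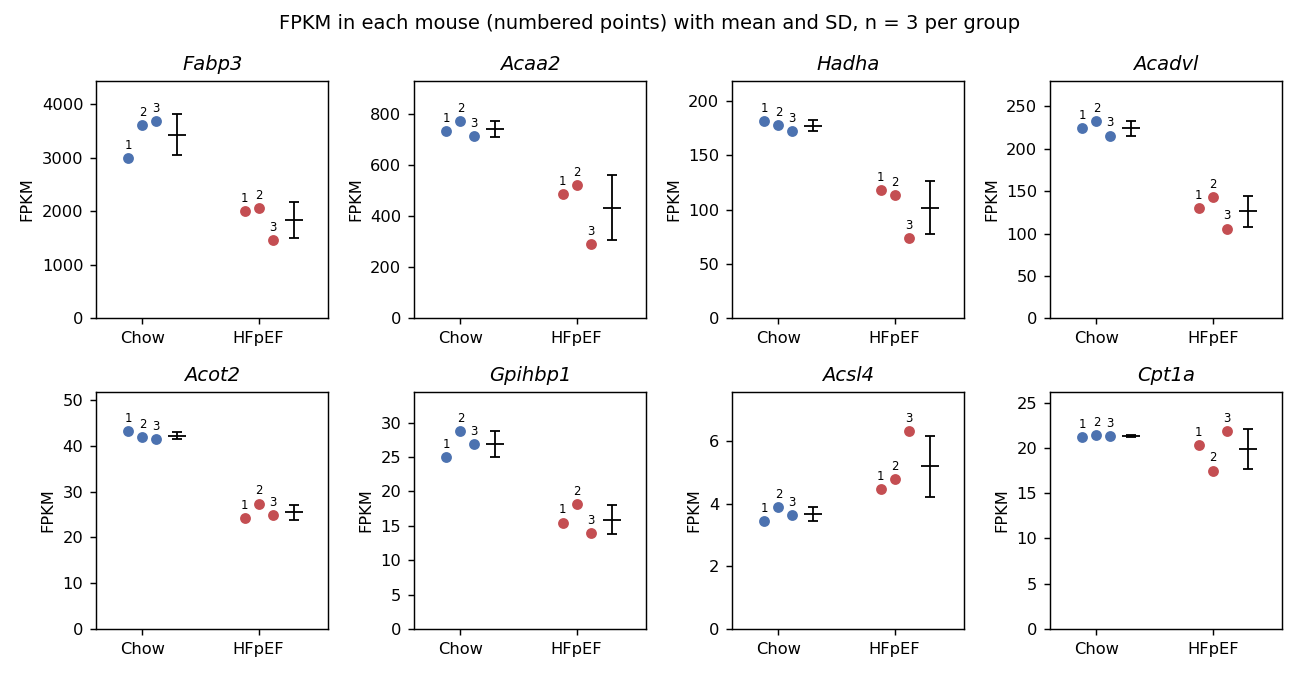
FPKM of 8 members in each mouse (points numbered by replicate), with the mean and SD of the 3 mice per group in black, each axis starting at 0. Fabp3, Acaa2, Hadha, Acadvl, Acot2 and Gpihbp1 are lower in all HFpEF mice, Acsl4 is higher in all, and Cpt1a overlaps. HFpEF 3 is the lowest HFpEF point of Fabp3, Acaa2, Hadha, Acadvl and Gpihbp1 but not of Acot2.

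As a share of all reads outside the mitochondrial genome, the members took 2.84%, 2.94% and 2.90% in Chow and 2.24%, 2.20% and 1.55% in HFpEF. This share does not use the scaling factors between libraries, but it falls where other genes take more of the reads. It did not overlap between groups (exact permutation p = 0.1). Their summed FPKM was 8719 ± 440.3 in Chow and 5143 ± 1039 in HFpEF (mean ± SD of 3 mice). The mean log2 difference was -0.56 for the share and -0.78 for the summed FPKM, which also depends on the divisor of each library.

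The members were next compared with the cell type that expresses most of them. The 10 ventricular cardiomyocyte markers, sarcomere and calcium-release genes such as *Myh6*, *Actc1* and *Myl3*, were lower in HFpEF by nearly the same amount. All 10 were lower without overlap, with a median log2 fold change of -0.61 and a range of -1.08 to -0.48, and 6 had an unadjusted p under 0.05. *Myl3*, the ventricular essential light chain, had FPKM values of 2184, 2460.0 and 2493 in Chow and 1361, 1279.6 and 999.5 in HFpEF. The geometric mean FPKM of the 10 was 757, 772 and 821 in Chow and 556, 567 and 370.2 in HFpEF, the lowest again in HFpEF 3. In HFpEF 1, 2 and 3 the median log2 ratio of these markers was -0.47, -0.37 and -1.02, beside -0.52, -0.50 and -1.03 for the members.

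Relative to these markers, the median log2 fold change of the members was -0.02. This scaling moved the median over the 14235 genes tested to 0.65. Without overlap, 8 members were then higher, against 68.3% of all genes, and 2 were lower, against 0.541%. At an unadjusted p under 0.05, 4 were higher (*Slc27a1*, *Acsl4*, *Acsl5* and *Cpt1a*), where 54.5% of all genes were, and 1 was lower, *Fabp3*, where 0.239% were. *Fabp3* had a log2 fold change of -0.23 on this scale, the lowest of the members, and *Acsl5* of 1.18, the highest. The 16 oxidation cycle genes had a median of -0.03 and a range of -0.16 to 0.24. The adjusted p under 0.05 was met by 0 members.

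The same scaling without HFpEF 3 gave adjusted p values under 0.05 for 6 members. *Acsl4*, *Acsl5*, *Slc27a1*, *Cpt1a* and *Pnpla2* rose, against 47.4% of all genes, and *Fabp3* fell by 0.27 on the log2 scale (adjusted p = 0.0487), against 0.366%. At an unadjusted p under 0.05, 6 members were higher and 3 lower in this fit, against 58.0% and 0.633% of all genes. Without overlap, 10 were higher and 11 lower, against 71.3% and 1.53%. With all 6 libraries the adjusted p of *Fabp3* on this scale was 0.0742. The markers *Myl2* and *Myl3* had lower fold changes than *Fabp3*, with log2 values of -1.08 and -0.98 against -0.92 before this scaling.

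**Figure D3:**
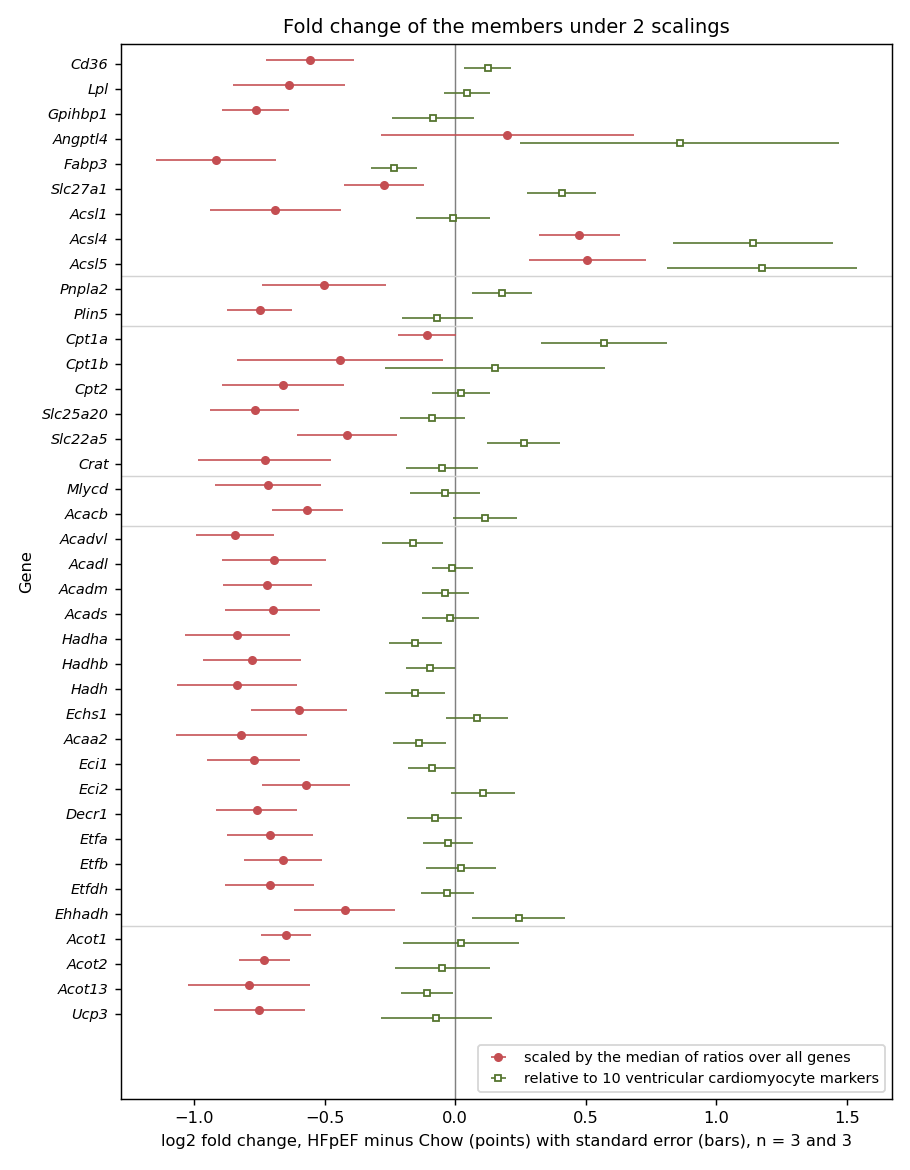
Fitted log2 fold change (HFpEF minus Chow, 3 mice each) with its standard error for each of the 39 members, as red circles after scaling by the median of ratios over all genes and as open green squares relative to 10 ventricular cardiomyocyte markers. The circles centre on -0.70 and the squares on -0.02, with Acsl4, Acsl5, Angptl4, Cpt1a and Slc27a1 to the right and Fabp3 to the left.

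Markers of other cells moved with the groups too, and their part in the members' values was not tested. Of 8 fibroblast markers tested, 7 were higher without overlap, with a median log2 fold change of 2.03 (0.99 without HFpEF 3). *Col1a1* had FPKM values of 27.2, 25.6 and 24.9 in Chow and 54.0, 87.2 and 2252 in HFpEF. The macrophage list (9 genes) had a median of 0.77, and 3 were higher without overlap. Its summed level was 234 to 296 FPKM in Chow, 955 in HFpEF 3, and 290.2 and 395 in the other HFpEF libraries. The 10 endothelial markers had a median of -0.28, with 6 lower without overlap, and the 7 smooth muscle and pericyte markers tested a median of 0.20, with 2 lower without overlap.

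Of 8 adipocyte markers tested, 5 were higher without overlap, 1 was lower without overlap (*Fabp4*, log2 fold change -0.49), and *Lipe* and *Slc36a2* overlapped, at -0.21 and -0.46. *Adipoq*, *Cfd*, *Cidec*, *Lep* and *Retn* were listed at 0 in all Chow libraries, and *Cfd* stood at 35.3, 37.8 and 22.9 FPKM in HFpEF. The whole list of 10 summed to 100.8 to 114.5 FPKM in Chow and 114.5 to 172 in HFpEF, ranges that meet, and most of it came from *Fabp4*, which endothelial cells also express. *Ucp1* and *Elovl3*, which define brown fat, were listed at 0 in all Chow libraries. In HFpEF 1, 2 and 3 *Ucp1* stood at 6.00, 8.33 and 0 FPKM and *Elovl3* at 0, 0.0395 and 0. The brown fat list of 6 summed to 999 to 1412 FPKM in Chow and 444 to 720.1 in HFpEF, nearly all of it *Cox7a1* and *Cox8b*, which heart muscle also expresses. Liver markers summed to 0.702 to 3.65 FPKM in Chow and 9.46 to 17.0 in HFpEF, with *Alb* and *Fgb* at 0 in all libraries. Most of the HFpEF sum came from *Cyp2e1*, at 10.3, 9.71 and 5.71, and *Ahsg*, at 5.85, 4.46 and 3.09. Skeletal muscle markers summed to 2.12 to 2.95 FPKM over all libraries, with *Myh4* at 0, and red blood cell markers to 279.8 to 1813 without separating the groups.

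The atrial markers varied among libraries, and their part in the members' values was not tested. The 5 genes summed to 13.3 and 16.2 FPKM in Chow 1 and 2 but to 538 in Chow 3, where the median log2 ratio of the members was -0.01. In HFpEF 1 and 2 they summed to 2453 and 3834 FPKM, and in HFpEF 3, the library with the lowest member values, to 20.6.

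**Figure D4:**
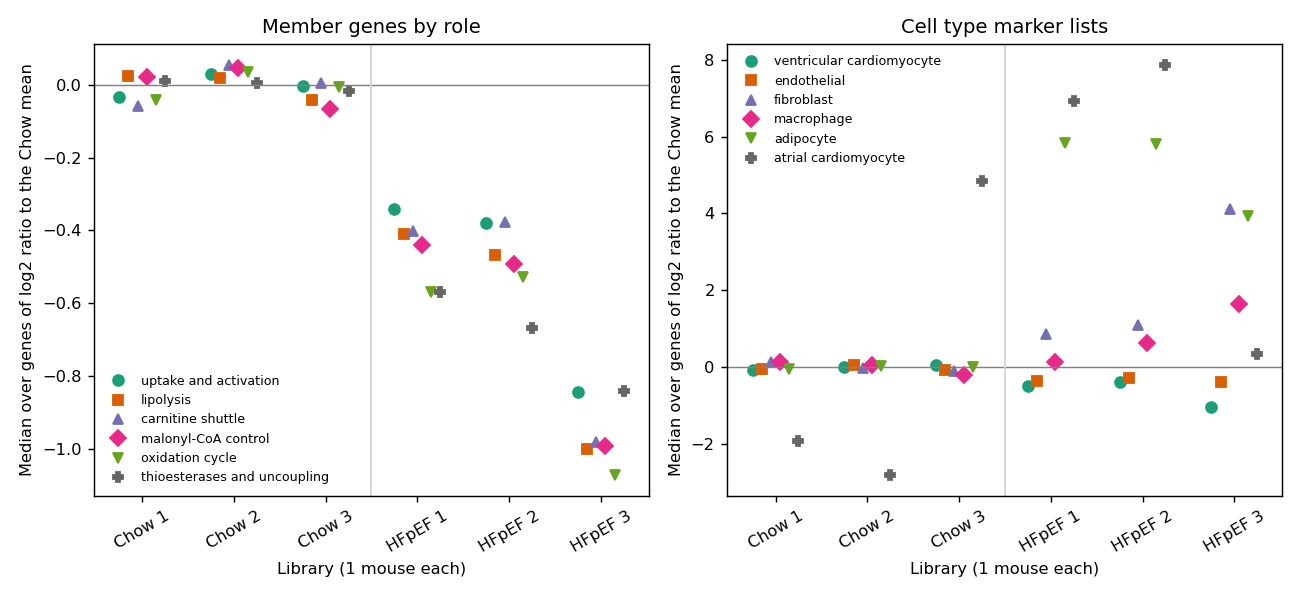
Median log2 ratio to the Chow mean in each library for the 6 roles of member genes (left) and for 6 marker lists (right, on a wider axis). All 6 roles lie between -0.07 and 0.06 in Chow, between -0.67 and -0.34 in HFpEF 1 and 2 and between -1.07 and -0.84 in HFpEF 3, a course the ventricular cardiomyocyte markers share, while fibroblast, adipocyte and atrial markers reach up to 7.87 in single libraries.

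Other genes of fatty acid metabolism, 74 listed by function and not members, were lower by less. Of these, 63 were tested, 54 had a log2 fold change below 0, and the median was -0.38. At an unadjusted p under 0.05, 26 were lower and 3 higher, against 13.1% and 10.2% of all genes, and 0 passed the correction. Without HFpEF 3, 16 were lower and 2 higher at an adjusted p under 0.05, against 5.36% and 2.85% of all genes.

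The lists differed in the size of the difference. The other mitochondrial oxidation genes (15 tested) had a median of -0.56, the lipid droplet genes (13) -0.41, the peroxisomal oxidation genes (14) -0.28, the other uptake, binding and activation genes (11) -0.22, the other fatty acid responsive genes (5) -0.28, and the other thioesterases and uncoupling genes (5) -0.17. *Gpam*, the first acyltransferase of triglyceride synthesis, had the lowest unadjusted p of the droplet list, with FPKM values of 66.9, 77.0 and 73.6 in Chow and 47.0, 42.3 and 39.8 in HFpEF and a log2 fold change of -0.75 (SE 0.12, adjusted p = 0.0814). *Auh*, *Mcat* and *Hsd17b10* led the mitochondrial list, with log2 fold changes of -0.66, -0.68 and -0.70. Not all genes of that list act in beta-oxidation of fatty acids. *Amacr*, *Hsd17b4* and *Pecr* led the peroxisomal list, with -0.65, -0.40 and -0.61. In the uptake list the leading genes were *Fabp4*, *Acss1* and *Vldlr*, with -0.49, -0.79 and -0.54, and in the droplet list *Abhd5* and *Plin3* followed *Gpam* with -0.41 and -0.73.

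The 3 genes that were higher at an unadjusted p under 0.05 were *Ucp2*, *Acaca* and *Cpt1c*, the last named after its values were seen, with a log2 fold change of 1.42 and FPKM from 0.531 to 0.821 in Chow and from 1.49 to 3.01 in HFpEF. *Ucp2*, a relative of *Ucp3* found in many cell types, had FPKM values of 10.01, 9.51 and 10.3 in Chow and 17.1, 18.7 and 16.1 in HFpEF, without overlap and opposite in sign to *Ucp3* (log2 fold change 0.79, SE 0.099, adjusted p = 0.0596). *Acaca*, the cytosolic acetyl-CoA carboxylase of fatty acid synthesis, stood at 1.06, 0.829 and 0.91 in Chow and 2.06, 2.14 and 1.38 in HFpEF, opposite in sign to the mitochondrial *Acacb* (log2 fold change 0.90, adjusted p = 0.118). The log2 fold change of *Pdk4*, a kinase that restrains glucose oxidation and is known to be induced by fatty acids, was -0.38 (SE 0.13, adjusted p = 0.161), with values of 131, 122 and 119 in Chow and 92.3, 106 and 88.4 in HFpEF. *Acot7* and *Them4* had log2 fold changes of -0.38 and -0.37, and *Txnip* of -0.60, the last 2 with overlap.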

How the data were processed

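Total RNA from the hearts of 3 Chow and 3 HFpEF mice was sequenced, 1 library per mouse. Clean reads were aligned by the authors to the mouse genome (GRCm38/mm10 per the labels) with HISAT2, counted per gene with featureCounts, and deposited as FPKM for 54532 genes; the annotation and strand setting are not given in the sources used here. The FPKM were multiplied by the exon length in GENCODE M21, which lists 54495 of the identifiers. Of these products, 96.1% to 96.2% were whole multiples of 1 step per library (relative tolerance 1e-06), which gave the recovered reads. Because ambiguous reads may be left out of such counts, recovered reads are those assigned to genes.

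The FPKM were rescaled by the median of ratios (factors 0.999 to 1.00), 0.1 was added as a pseudocount, and the 14225 genes that reached FPKM 0.5 in 3 or more libraries were fitted on the log2 scale with limma 3.58.1 in R 4.3.3 (eBayes with trend and robust options). All p values are from this fit with Benjamini-Hochberg adjustment over all genes tested, unless named as exact permutation tests, which are two-sided. Fold changes are on the log2(FPKM + 0.1) scale. The fitting script was tested on simulated data. Python 3.11.15 with numpy 2.4.6, pandas 2.3.3 and scipy 1.17.1 was used for the rest, and matplotlib 3.10.9 for figures.

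The members and all lists were chosen with earlier results of these data known. A member is given in full when its groups did not overlap and its unadjusted p was under 0.05, or when it was among the 5 of highest FPKM or of largest fold change, which held for 31 of 39. Of the other pathway lists the 3 genes of lowest p are named, and of the marker lists up to 3 of highest FPKM. Marker genes named beyond these, such as *Myl2*, *Adipoq*, *Lep* and *Ucp1*, were named after their values were seen. Alternatives were FPKM as deposited, quantile normalization, scaling to ventricular cardiomyocyte markers, an FPKM minimum of 1, no filter, pseudocounts of 0.01 and 1, eBayes without trend or robust options, voom on recovered reads, the replicate number as a block, lower thresholds, and each library left out. The marker scaling without HFpEF 3 and the endothelial scaling of *Gpihbp1* were added after the data were seen. Promoter windows were RefSeq's (GRCm38.p6), and 8 members had none. Proteomic and other assays of the study were not analysed here.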

Additional observations from a re-analysis of the deposited data

How the results depend on the processing

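No member reached the threshold of the study under any alternative run. Relative to the ventricular cardiomyocyte markers, the median log2 fold change of the members was -0.018. At an unadjusted p under 0.05, 4 members were higher and 1 lower, against 54.5% and 0.239% of all genes. Without overlap, 8 were higher and 2 lower, against 68.3% and 0.541% of all genes. Of the 31 members given in full, 8 changed sign under this scaling, to log2 fold changes of 0.13 for *Cd36*, 0.045 for *Lpl*, 0.022 for *Cpt2*, 0.11 for *Acacb*, 0.083 for *Echs1*, 0.11 for *Eci2*, 0.022 for *Etfb* and 0.022 for *Acot1*, and none changed sign under the 15 alternatives run on them that do not scale to markers. The same scaling without HFpEF 3 gave a median of -0.029. At an adjusted p under 0.05, 5 members were higher and 1 lower, against 47.4% and 0.366% of all genes. At an unadjusted p under 0.05, 6 were higher and 3 lower, against 58.0% and 0.633%. Without overlap, 10 were higher and 11 lower, against 71.3% and 1.53%. In this fit *Cd36*, *Lpl*, *Cpt2*, *Acacb*, *Echs1* and *Eci2* again lay above 0, as did *Acsl1* (0.076) and *Crat* (0.046). These shifts follow from the scaling itself, since the markers were lower in HFpEF.

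Leaving out each library in turn gave 0 to 29 members at an adjusted p under 0.05, with 29 only without HFpEF 3. In that fit 5.36% of all genes were lower and 2.85% higher at this threshold. It gave 0 to 2 members higher at an unadjusted p under 0.05 (0 without Chow 1 or Chow 3, 2 without HFpEF 1) and 1 to 2 higher without overlap (2 without Chow 2 or HFpEF 1). The log2 difference of the *Cpt1a* to *Cpt1b* ratio ran from -0.044 to 0.69, below 0 only without Chow 3, the library with the highest *Cpt1b*. Quantile normalization gave a median of -0.46 and 24 members lower at an unadjusted p under 0.05. Under it the log2 fold changes of *Fabp3*, *Cd36* and *Lpl* were -0.16, -0.13 and -0.20 (limma unadjusted p = 0.299, 0.23 and 0.15). Counts under voom and the replicate block are left out, because the shares over all genes in those fits are not given here. The same shares are missing for quantile normalization and the other libraries left out. The counts above from those fits therefore do not show how the members stood beside all genes. Correlations of same-numbered libraries between -0.073 and -0.041 gave no sign of pairing. With 3 mice per group no single member can reach an exact p under 0.1, and *Cpt1b*, at 20 reads or more per library, was the member measured with the least depth.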
